A study of Mus musculus with 22 samples.

Results

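Whole-cortex RNA was compared between visual cortex with reduced visual input and visual cortex that saw. The comparison used the 5 input libraries of a mouse RiboTag series, which hold RNA of the whole dissected region taken before astrocyte ribosomes were pulled down. They are 5 of the 22 samples of the series, and 16 pulldown libraries with values served as the second set of samples. The 3 deprived inputs came from the hemisphere contralateral to an eye closed for 2 days at postnatal day 28 (the contralateral input), from mice kept in darkness from birth to day 45 (the dark-reared input) and from mice held in darkness for 10 days and sampled at day 120 (the dark-exposed input). The 2 seeing inputs came from the hemisphere ipsilateral to the closed eye at day 28 (the ipsilateral input) and from mice reared to day 45 under a normal light cycle (the normally reared input). All mice were C57BL/6J and carried 73.12 GFAP-cre with RPL22-HA, a hemagglutinin tag on a ribosomal protein that the Gfap promoter's Cre switches on mainly in astrocytes. The inputs were not selected for the tag and hold RNA of every cell type of the tissue. Each condition has 1 input, ages differ within both sides, and day 120 has no seeing input of its own age. The labels do not say whether an input is 1 animal or a pool, nor whether both hemispheres of the same mice were used.

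Neurons answer synaptic activity with a fast wave of transcription. Calcium entry activates kinases and the factors CREB and SRF, which switch on immediate early genes without new protein synthesis. The first products are transcription factors such as Fos and Egr1, and beside them come effectors at synapses, secreted factors and feedback inhibitors that end the signal. In visual cortex this programme is a common readout of visual drive. In mice most optic fibres cross, so closing 1 eye affects the contralateral hemisphere most, while some light still passes the lid.

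Promoter sequence is shown for the 4 genes with the widest separation between deprived and seeing inputs among those with exactly 1 RefSeq start under their symbol. Genes with several starts, or with none under the symbol used here, were passed over. Each stretch is the 250 bases before the start on GRCm38.p6, read 5′ to 3′ on the gene's strand. The capitals mark TGACG on either strand (CGTCA on the other), the core that CREB family factors are known to bind, and TGACGTCA, present once, before Btg2, holds it on both strands at once. The windows lie at chr12:85473640-85473889 (plus strand) for Fos, chr19:4989972-4990221 (minus strand) for Npas4, chr7:19310046-19310295 (minus strand) for Fosb and chr1:134079156-134079405 (minus strand) for Btg2.
Fos: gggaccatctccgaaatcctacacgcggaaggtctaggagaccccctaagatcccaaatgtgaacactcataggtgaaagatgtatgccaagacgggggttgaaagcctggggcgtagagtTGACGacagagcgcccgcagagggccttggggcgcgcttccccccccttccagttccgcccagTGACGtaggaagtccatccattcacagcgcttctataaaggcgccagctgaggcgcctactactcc
Npas4: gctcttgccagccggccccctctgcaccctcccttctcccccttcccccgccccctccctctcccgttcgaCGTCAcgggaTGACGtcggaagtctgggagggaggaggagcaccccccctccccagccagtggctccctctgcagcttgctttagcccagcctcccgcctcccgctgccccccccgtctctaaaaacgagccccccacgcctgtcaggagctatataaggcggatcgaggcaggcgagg
Fosb: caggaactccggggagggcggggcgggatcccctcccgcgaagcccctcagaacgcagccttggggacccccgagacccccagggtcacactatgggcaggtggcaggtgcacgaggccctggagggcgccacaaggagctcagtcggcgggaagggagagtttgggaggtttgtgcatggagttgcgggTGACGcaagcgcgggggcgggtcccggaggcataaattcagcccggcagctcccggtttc
Btg2: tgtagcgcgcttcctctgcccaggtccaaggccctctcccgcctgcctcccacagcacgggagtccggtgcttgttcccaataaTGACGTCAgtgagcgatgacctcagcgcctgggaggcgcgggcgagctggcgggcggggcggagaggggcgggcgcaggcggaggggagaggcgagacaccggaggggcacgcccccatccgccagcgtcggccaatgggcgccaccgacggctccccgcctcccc
TGACG occurred in 14 of the 19 measured immediate early transcription factor genes with a window, or 73.7%. It occurred in 10 of 18 activity effectors (55.6%), in 8 of 17 feedback regulators (47.1%) and in 19.8% of all 27025 genes with a window. The full TGACGTCA was in 0 of those 19, in 3 of 18 effectors, in 4 of 17 feedback regulators and in 1.77% of all genes. The CArG box, the motif of SRF, was in 1 of 19, 0 of 18 and 2 of 17 genes of the 3 lists and in 1.62% of all genes. Genes with several starts count once if any window holds the motif, and a match of letters is a description, not a binding site. The list members were all measured in the inputs, whereas the 27025 genes include many that were not. The shares thus come from unlike sets, and the part of this in their difference was not tested.

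Values were FPKM (fragment counts scaled to transcript length and to library size), analysed as log2(FPKM + 1) over the 12563 genes with a mean input above 1 FPKM. A gene is called apart when all 3 deprived inputs lie on one side of both seeing inputs, and its gap is the log2 distance between the nearest deprived and the nearest seeing library. Apart and lower in the deprived inputs were 475 genes (3.78%), and apart and higher were 461 (3.67%). A gap of at least 0.5 was met by 30 lower genes (0.239%) and by 1 higher gene (0.00796%). With 3 libraries against 2 an exact permutation has 10 splits and cannot pass 0.05. Counted 2-sided by doubling the smaller tail, the lowest p of that permutation is 0.2, so apartness is given as a description. By limma with Benjamini-Hochberg adjustment 0 genes passed 0.05, while 102 had an unadjusted p below it, 84 lower (0.669%) and 18 higher (0.143%).

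Immediate early transcription factors lay lower in all 3 deprived inputs for a larger share of members than any other of the 31 lists examined. The lists were chosen with earlier results of these data known, so this rank is a description. Of 27 listed genes 25 were measured, and 21 of them were apart and lower, 0 apart and higher, against 3.78% lower among all genes. Their median difference was -0.99 on the log2 scale, where the median of all genes was 0.01. The mean log2(FPKM + 1) over the 25 genes was 4.02 in the contralateral, 3.55 in the dark-reared and 3.66 in the dark-exposed input, against 4.77 in the ipsilateral and 4.73 in the normally reared input. The dark-reared input was the lowest library for 14 genes and the dark-exposed input for 9, and the contralateral input was the lowest for 1. Over all 12563 genes these inputs were the lowest for 4540, 1139 and 920, in the same order.

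Egr2, a zinc finger factor of the early growth response family, had the widest gap, 1.52. The gene spans chr10:67534469-67542188 on GRCm38, and it stood at 11, 5.0 and 6.4 FPKM in the contralateral, dark-reared and dark-exposed inputs, against 38.2 and 33.4 FPKM in the ipsilateral and normally reared inputs. The 2 seeing libraries lay close together although they differ in age and rearing, and the nearest pair of deprived and seeing libraries differed 3.04-fold in FPKM. The limma difference was -2.18 ± 0.29 (SE) with an adjusted p of 0.426. Fos, which pairs with Jun proteins to form the factor AP-1, had 46.0, 25.7 and 25.3 FPKM in the contralateral, dark-reared and dark-exposed inputs, against 119.4 and 118.3 FPKM in the ipsilateral and normally reared inputs. Both darkness inputs nearly coincided, as did both seeing inputs, and the contralateral input lay between. Npas4, a neuronal factor induced by calcium entry, had 18.3, 10.8 and 12.0 FPKM in the deprived inputs in the same order, against 51.0 and 46.6 FPKM in the seeing inputs. Fosb, the close relative of Fos, had 6.6, 3.6 and 6.2 FPKM in the deprived inputs and 16.4 and 19.0 FPKM in the seeing ones. These 4 genes were picked for their wide gaps. The TGACG core marked above is present before 3 of them, Egr2 having several starts and no window printed.

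Nr4a1, an orphan nuclear receptor, had 80.2, 33.4 and 50.4 FPKM in the deprived inputs, against 210.0 and 168.2 FPKM in the seeing inputs. Egr4 had 30.8, 26.1 and 21.4 FPKM in the deprived inputs and 85.3 and 64.7 FPKM in the seeing ones. Egr1, the best known factor of its family, was the most abundant member by FPKM, with 170.8, 135.8 and 130.3 FPKM in the deprived inputs, against 344.4 and 307.5 FPKM in the seeing inputs. In all 3 genes the contralateral input was the highest of the deprived libraries and still lay under both seeing libraries. Of the remaining apart genes, Junb, Fosl2, Ier2, Egr3, Nr4a3, Tiparp and Sik1 had gaps from 0.58 to 0.95, and Nr4a2, Csrnp1, Ier5, Klf10, Klf4, Crem and Per1 had gaps from 0.04 to 0.40. Klf4 sat just inside the expression filter with a mean of 1.02 FPKM, and Atf3 and Maff stayed under it, at 0.42 and 0.36 FPKM. The 4 measured genes that were not apart were Jun, Jund, Klf2 and Nfil3. Jund, an AP-1 partner expressed at rest, had 51.7, 72.9 and 52.0 FPKM in the deprived inputs and 65.9 and 50.8 FPKM in the seeing ones, so that the sides overlapped. Jun had 24.1, 15.8 and 20.7 FPKM against 24.4 and 23.3 FPKM, so that the contralateral input lay between the 2 seeing libraries. Nfil3, a repressor induced by cytokines, had 6.7, 5.3 and 5.8 FPKM in the deprived inputs and 12.4 and 6.0 FPKM in the seeing ones, its ipsilateral value alone standing high.

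**Figure D1:**
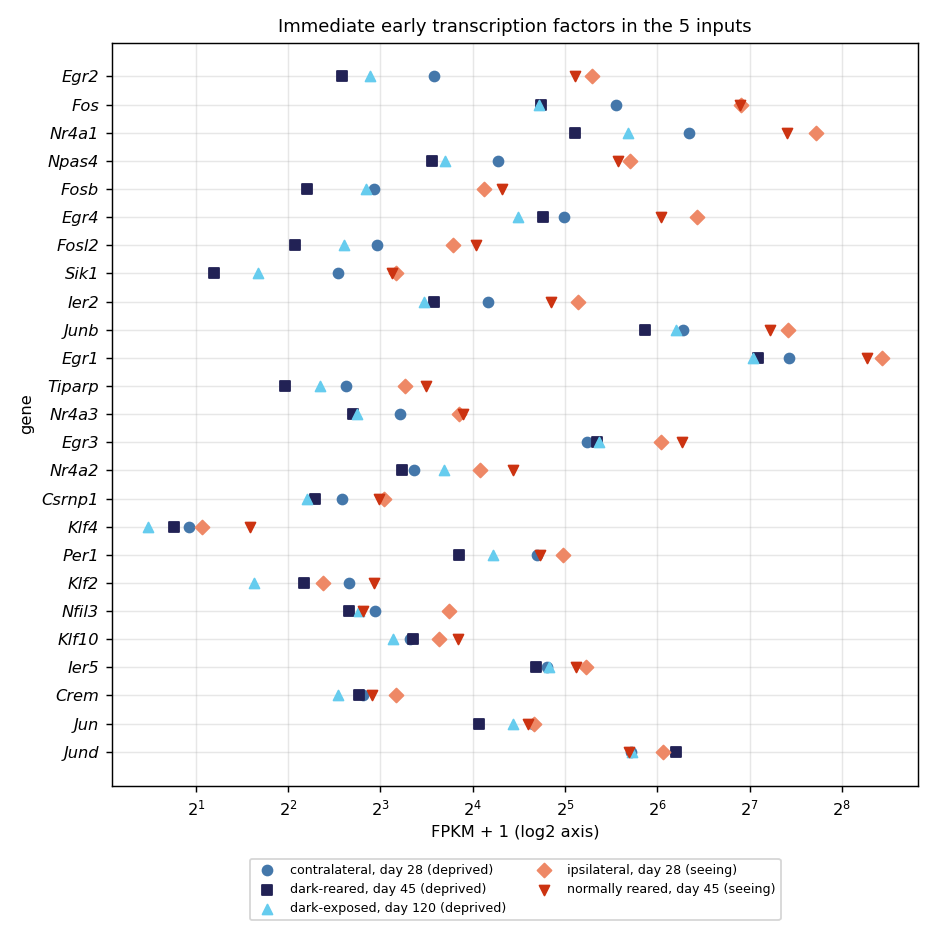
FPKM + 1 on a log2 axis of the 25 measured immediate early transcription factors, 1 row a gene and 1 point an input library, sorted by the deprived minus seeing difference. In 21 rows the 3 blue deprived points all lie left of both red seeing points, and in the rows of Jun, Jund, Klf2 and Nfil3 they do not.

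Feedback regulators, which limit kinase signalling and the life of early transcripts, were apart and lower for 14 of 20 measured genes and higher for 0. Their median difference was -0.31, and among all genes 3.78% were apart and lower. Btg2, an antiproliferative factor, had 18.5, 15.8 and 16.3 FPKM in the contralateral, dark-reared and dark-exposed inputs, against 40.3 and 49.4 FPKM in the ipsilateral and normally reared inputs. Dusp1, a phosphatase that switches off MAP kinases, had 40.0, 29.1 and 25.7 FPKM in the deprived inputs, against 79.8 and 81.2 FPKM in the seeing inputs. The 2 seeing values of Dusp1 were again close together, and none of the deprived ones exceeded 40.0 FPKM. Dusp6 and Dusp5, phosphatases specific for ERK, had gaps of 0.75 and 0.64. The other lower genes were Dusp4, Spry2, Spry4, Zfp36, Zfp36l1, Zfp36l2, Errfi1, Mcl1, Ppp1r15a and Ifrd1, with gaps from 0.02 to 0.46. Not apart were Dusp14, Btg1, Spred1, Sgk1, Nfkbia and Socs3, and Dusp2 stayed under the filter.

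Effectors at synapses and secreted factors were split. Of 28 measured genes 11 were apart and lower, against 3.78% of all genes, and 0 higher, and the median difference was -0.30. Arc, which removes AMPA receptors from synapses, had 153.8, 38.4 and 98.1 FPKM in the deprived inputs, against 375.9 and 307.6 FPKM in the seeing inputs. Its dark-reared value was the lowest by a wide margin, and the limma difference was -2.01 ± 0.50 (SE) with an adjusted p of 0.999. Bdnf, a neurotrophin, had 5.3, 4.2 and 3.4 FPKM in the deprived inputs and 11.1 and 8.7 FPKM in the seeing ones. Nptx2, a secreted pentraxin that gathers AMPA receptors, had 17.8, 19.5 and 14.5 FPKM in the deprived inputs, against 39.8 and 29.8 FPKM in the seeing inputs. Neither gene overlapped between the sides. Cyr61, a matrix protein also named Ccn1, had 14.0, 5.68 and 4.15 FPKM in the deprived inputs and 31.4 and 33.5 FPKM in the seeing ones. Ptgs2, the inducible cyclooxygenase, had 2.1, 1.8 and 2.1 FPKM in the deprived inputs, against 5.1 and 5.6 FPKM in the seeing inputs. Gadd45b, a stress and demethylation factor, had 8.6, 3.2 and 6.2 FPKM in the deprived inputs and 16.7 and 16.8 FPKM in the seeing ones. Within each of these 3 genes, named for their wide gaps, the seeing inputs stood close together. The deprived ones were more spread for Cyr61 and Gadd45b. Trib1, Gadd45g, Sorcs3, Vgf and Fbxo33 were also apart and lower, with gaps from 0.01 to 0.82.

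The other 17 measured effectors overlapped between the sides. Homer1, a scaffold of metabotropic glutamate receptors whose isoforms share 1 value per library here, had 21.2, 22.2 and 19.7 FPKM in the deprived inputs and 21.8 and 27.9 FPKM in the seeing ones. Nptx1, the constitutive relative of Nptx2, had 62.3, 64.5 and 94.4 FPKM in the deprived inputs, against 47.9 and 75.7 FPKM in the seeing inputs. Rgs4, a brake on G protein signalling, had 238.1, 256.9 and 160.1 FPKM in the deprived inputs and 311.2 and 231.9 FPKM in the seeing ones. These 3 genes show no common order of deprived and seeing libraries. The rest of the 17 were Nptxr, Scg2, Pcsk1, Nrn1, Rgs2, Plk2, Rheb, Rasd1, Rasl11a, Fam107b, Igf1, Plat, Lingo3 and Coq10b, while Inhba, Baz1a, Tnfrsf23 and Acan stayed under the filter.

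The 3 lists together held 73 measured genes, of which 46 were apart and lower and 0 apart and higher. They supplied 25 of the 30 genes lower with a gap of at least 0.5, and all 10 of the widest gaps. The values nearest that gap were 0.53 for Mir135a-1 just inside it and 0.46 for Dusp4 just outside it. Pim3, a serine kinase outside the lists with a gap of 0.54, had 15.4, 15.6 and 15.4 FPKM in the deprived inputs and 25.6 and 23.2 FPKM in the seeing ones.  Arl4d, a small GTPase also outside the lists, had 24.7, 19.0 and 20.9 FPKM in the deprived inputs, against 54.9 and 38.8 FPKM in the seeing inputs. Both genes were singled out after their values were seen, among genes already chosen for sides that stand clear of each other.

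The remaining 3 genes with such a gap were annotated at the microRNA precursors Mir212, Mir1966 and Mir135a-1, also named after their values were seen. Mir212 lies beside Mir132, and their transcription is known to be driven by CREB in neurons. The mature products share the seed, bases 2 to 8, shown in capitals, at chr11:75173443-75173464 for miR-212-3p and chr11:75173723-75173744 for miR-132-3p, both on the plus strand of GRCm38.p6 in RefSeq.
mmu-miR-212-3p: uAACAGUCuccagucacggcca
mmu-miR-132-3p: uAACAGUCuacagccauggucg
The Mir212 precursor had 1.9, 0.0 and 0.8 FPKM in the deprived inputs, against 5.4 and 3.4 FPKM in the seeing inputs. At the estimated depths that is 8.86, 0 and 2.10 reads against 19.0 and 10.1 reads, so counting error alone is large. Mir132 had 0.6, 0.0 and 1.1 FPKM in the deprived inputs and 1.6 and 3.3 FPKM in the seeing ones, from 0 to 7.08 reads. In poly(A) libraries such reads come from the host transcript, and the mature microRNAs were not measured.

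Age was held equal by 2 pairs of inputs, contralateral minus ipsilateral at day 28 and dark-reared minus normally reared at day 45. Both pairs were negative for 15.3% of all genes and both positive for 12.8%. Among the 25 immediate early transcription factors, 23 were lower in both pairs and 0 higher in both, with a median of -0.71 at day 28 and -1.20 at day 45. A gene apart and lower is lower in both pairs by definition, so the 21 apart genes were bound to be among the 23, and these counts are no separate check. Of the 20 feedback regulators 14 were lower in both pairs and 2 higher, and of the 28 effectors 16 were lower and 2 higher. Egr2 differed by -1.71 between hemispheres and by -2.52 between dark and normal rearing, Fos by -1.36 and -2.16, and Arc by -1.28 and -2.97. Nptx2 differed by -1.12 between hemispheres and by -0.59 between dark and normal rearing, so its larger difference was at day 28. Each pair is 1 library against 1, so the difference in size between the pairs could not be tested.

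**Figure D2:**
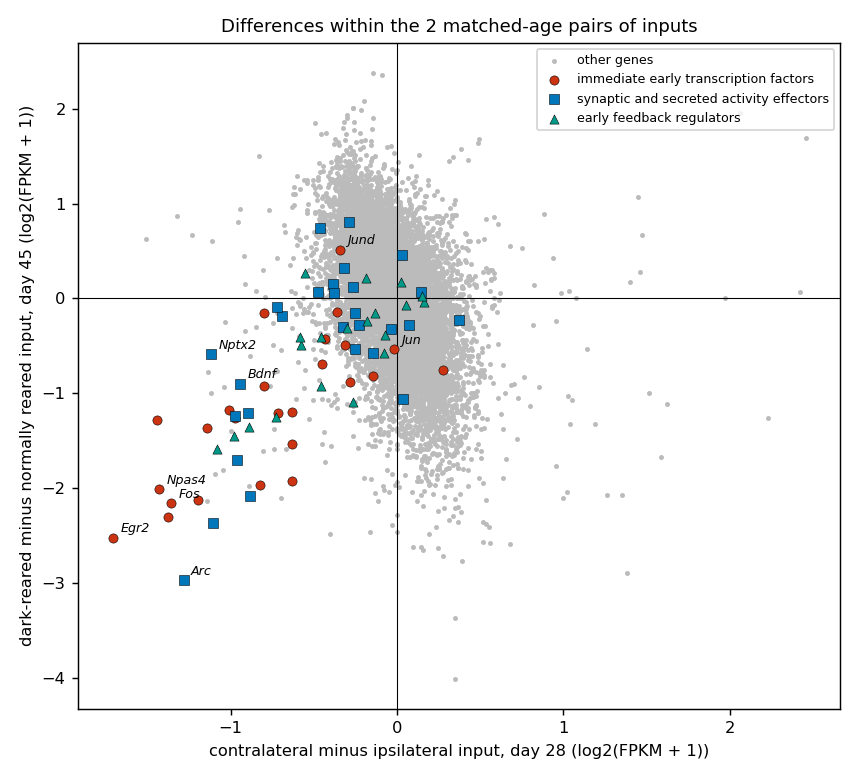
Difference of contralateral minus ipsilateral input at day 28 (x axis) against dark-reared minus normally reared input at day 45 (y axis), in log2(FPKM + 1), 1 point a gene for the 12563 genes. The 3 activity lists lie mostly in the lower left, where both pairs are negative, and the grey cloud of other genes runs from upper left to lower right.

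The genes higher in deprived inputs formed a weaker set, with 1 gap of at least 0.5. Matn2, a matrilin of the extracellular matrix at chr15:34306681-34436242, had 9.2, 11.2 and 9.5 FPKM in the contralateral, dark-reared and dark-exposed inputs, against 5.7 and 6.1 FPKM in the ipsilateral and normally reared inputs. Ldb2, a LIM domain binding factor, had 24.0, 25.6 and 26.6 FPKM in the deprived inputs and 19.0 and 18.8 FPKM in the seeing ones. Both genes were picked for their wide gaps, so sides that stand clear of each other follow from that choice. Sebox, just outside that gap at 0.497, had 1.4, 1.5 and 1.4 FPKM in the deprived inputs, against 0.5 and 0.7 FPKM in the seeing inputs. The other genes among the 10 widest gaps were Cys1, Ifit3b, Kctd8, Aldh3a1, Paqr6, Ifit3 and Ifitm2, with gaps from 0.27 to 0.42, and all of these but Ifitm2 had at most 4.5 FPKM in every input. At such levels the rounding of deposited values to 0.1 FPKM is a sizeable part of the gap.

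Interferon and antigen presentation genes were apart and higher for 6 of 18 measured members and lower for 0, against 3.67% higher among all genes. Their median difference was 0.39. Among the 6 were Ifit3, Ifi27, H2-D1, Tapbp and Cd74, and the count was 4 once a trend with transcript length, given further on, was removed. After that removal 694 of 12516 genes were apart and higher. H2-D1, a class I heavy chain, had 13.4, 17.5 and 15.4 FPKM in the deprived inputs and 12.0 FPKM in each seeing input. Ifi27 had 11.1, 14.4 and 13.2 FPKM in the deprived inputs, against 9.6 and 8.5 FPKM in the seeing inputs. These 2 genes were highest in the dark-reared library, whereas a second subset was high in the contralateral input alone. Isg15, a ubiquitin-like interferon product, had 10.8 FPKM in the contralateral input, 1.3 and 0.8 FPKM in the dark-reared and dark-exposed inputs, and 1.2 FPKM in each seeing input. Oasl2 had 4.1 FPKM in the contralateral input and 0.3 to 0.5 FPKM in the other 4 inputs, and Bst2 had 9.2 FPKM there and 2.1 to 3.5 FPKM elsewhere. The contralateral input is a single library, and whether it stands for its condition or for 1 sample was not tested.

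**Figure D3:**
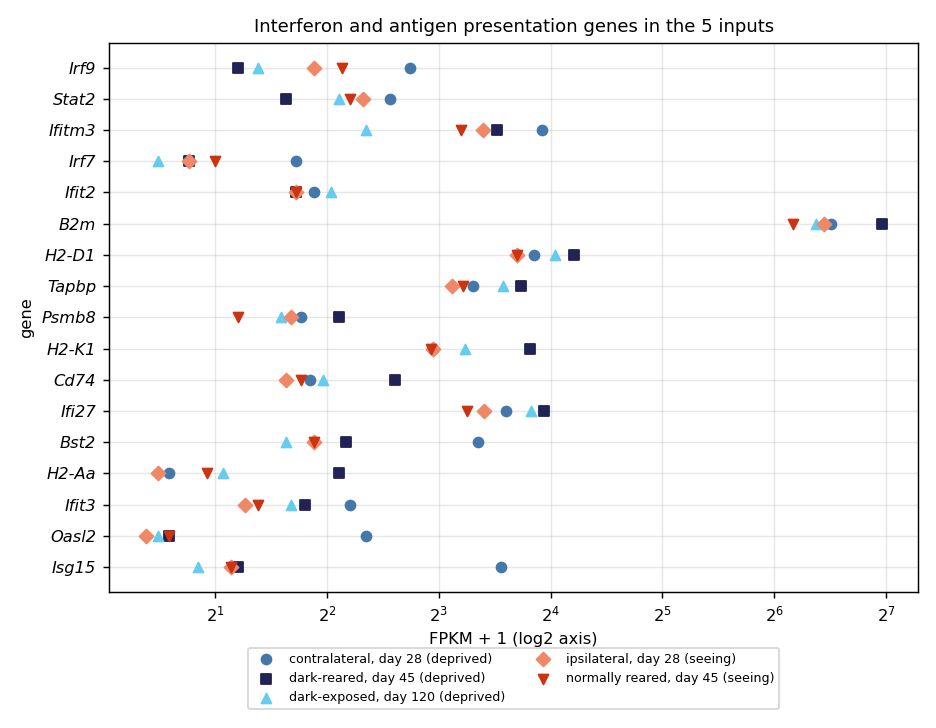
FPKM + 1 on a log2 axis of the 18 measured interferon and antigen presentation genes, 1 of which is not drawn, 1 row a gene and 1 point an input library. Isg15, Oasl2 and Bst2 are high in the contralateral input alone, and H2-D1 and Ifi27 are highest in the dark-reared input.

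Clock genes went both ways, with 4 of 19 apart and lower and 3 apart and higher, and gaps of at most 0.10. The shares among all genes, for this and the next lists, were 3.78% lower and 3.67% higher. Per2, a repressor of the clock, had 5.5, 1.9 and 4.0 FPKM in the deprived inputs and 5.7 and 6.0 FPKM in the seeing ones. Nr1d1, a nuclear receptor that represses Bmal1, had 96.4, 113.1 and 97.0 FPKM in the deprived inputs, against 92.8 and 78.4 FPKM in the seeing inputs. Hlf, an output factor, had 50.3, 58.0 and 62.0 FPKM in the deprived inputs and 34.8 and 47.8 FPKM in the seeing ones. Per1 and Ciart were lower, with gaps of 0.04 and 0.10. The hour of dissection is not in the labels. In the cholesterol synthesis list 2 of 23 genes (8.70%) were apart and lower and 0 higher, too few to set against the share of all genes. Of 15 glucocorticoid-responsive genes 3 were apart and lower, Cdkn1a, Errfi1 and Per1, and 1 higher, Angptl4. Per1 was also counted among the clock genes and the immediate early factors, and Errfi1 among the feedback regulators. Cdkn1a, a cell cycle inhibitor, had 6.9, 7.6 and 3.9 FPKM in the deprived inputs and 15.2 and 9.2 FPKM in the seeing ones. Dnajb5, a co-chaperone, had 57.5, 36.3 and 33.4 FPKM in the deprived inputs, against 95.6 and 62.4 FPKM in the seeing inputs. Dnajb5 was 1 of 2 chaperones apart and lower of 24 measured (8.33%), again too few to set against the share of all genes.

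Cell type markers checked what tissue the inputs held. The vesicular glutamate carrier Slc17a7 ranged from 590.3 to 928.8 FPKM over the 5 inputs and Gad1, which makes GABA, from 66.9 to 94.3 FPKM, while Ttr and Kcne2 of the choroid plexus stayed at or under 0.1 FPKM. Of 19 excitatory markers 1 was apart and lower and 1 higher, of 21 inhibitory markers 1 and 0, of 22 astrocyte markers 0 and 1, and of 17 oligodendrocyte markers 0 and 0. Among all genes 3.78% were apart and lower and 3.67% apart and higher. The median differences of the excitatory and inhibitory lists were 0.03 and -0.02, against -0.99 for the immediate early factors. None of 16 endothelium and pericyte, 11 meninges and fibroblast, 12 oligodendrocyte precursor and 16 immature neuron markers was apart. Contralateral minus ipsilateral, however, had a median of 0.36 for endothelium and pericytes and 0.34 for meninges and fibroblasts, against -0.025 for all genes. In each of these 2 lists 1 member was lower, so content of vessels and meninges may differ between the hemispheres, which was not tested. Of 36 glutamate and GABA receptor subunits 1 was apart and lower, of 26 postsynaptic scaffolds 1, of 22 neuropeptide genes 0, and of 15 perineuronal net and matrix genes 0. Sst, the peptide of an interneuron class, had 330.4, 297.5 and 239.5 FPKM in the deprived inputs and 444.5 and 218.6 FPKM in the seeing ones. Pvalb, a calcium buffer of fast-spiking interneurons, had 54.4, 96.0 and 57.6 FPKM in the deprived inputs, against 72.4 and 37.5 FPKM in the seeing inputs. Both overlapped between the sides. Of 15 microglia markers 3 were apart and higher, Cx3cr1 and Csf1r among them with gaps of 0.04 and 0.05, and the dark-reared input was the highest library for all 15. That library was the highest for 3882 of all 12563 genes. In bulk tissue fewer cells of a type and less RNA per cell cannot be told apart. Hemoglobin Hbb-bs, a sign of blood, had 6.8, 7.4 and 24.6 FPKM in the deprived inputs and 7.8 and 2.4 FPKM in the seeing ones. The ribosomal RNA precursor Rn45s had 569.3, 123.2 and 127.8 FPKM in the deprived inputs, against 102.8 and 37.4 FPKM in the seeing inputs. Rn45s was thus apart and higher and its part in the other differences was not tested.

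The dark-reared and normally reared libraries formed opposite ends of the inputs across the transcriptome. The dark-reared input was the lowest library for 4540 of the 12563 genes and the normally reared input for 4398, against 920 to 1566 for each of the other 3. As the highest library, the dark-reared input counted 3882 genes, against 1550 to 3006 for each of the other 4. The log2 values of the dark-reared input correlated at 0.938 to 0.966 with the other 4 inputs, which correlated with each other at 0.967 to 0.992, as a description over genes. Estimated depths ran from 26.95 M reads in the dark-reared to 51.25 M reads in the contralateral input. The dark-reared minus normally reared difference declined with transcript length, with a Spearman rho of -0.618 over 12516 genes, and over 4 equal classes of length its median was 0.54 in the shortest and -0.47 in the longest. Contralateral minus ipsilateral ran the other way, with a rho of 0.474 and medians of -0.15 and 0.10. Several list medians had opposite signs in the 2 pairs. Cytosolic ribosomal proteins, whose transcripts are short, had a median of 1.41 between dark and normal rearing and -0.24 between hemispheres, and respiratory chain genes 1.05 and -0.27. The normally reared input was the lowest library for 54 of 64 ribosomal proteins, 71 of 74 respiratory chain genes and 13 of 15 microglia markers, and the dark-reared input the highest for 54, 54 and 15. Microglia markers had 1.04 and -0.08, and astrocyte markers 0.48 and -0.04. The reverse held for sodium and calcium channels, with long transcripts, at -0.73 and 0.10, and for long noncoding RNAs at -1.81 and 0.23. Meg3, an imprinted noncoding RNA of neurons, had 10.1 FPKM in the dark-reared input, 85.5 and 57.1 FPKM in the contralateral and dark-exposed inputs, and 66.8 and 113.1 FPKM in the ipsilateral and normally reared inputs.

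**Figure D4:**
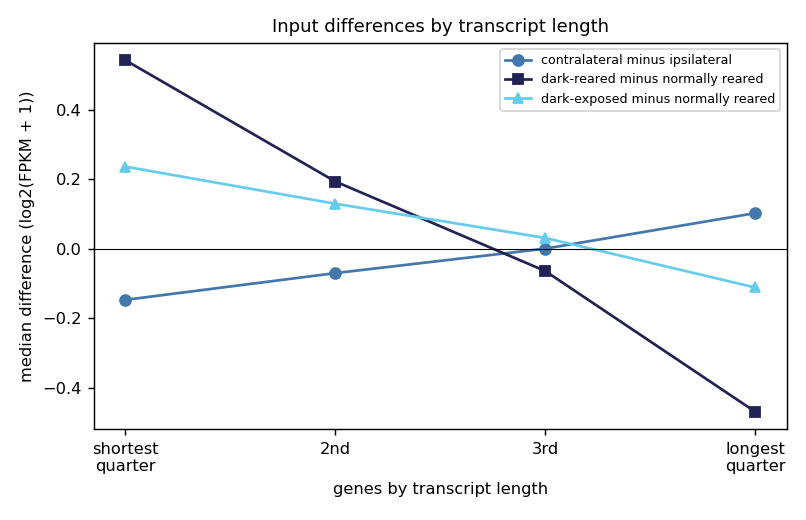
Median difference in log2(FPKM + 1) between pairs of inputs, for genes in 4 equal classes of transcript length from the shortest to the longest. The dark-reared line runs from 0.54 down to -0.47, the hemisphere line from -0.15 up to 0.10, and the dark-exposed line, which shares the normally reared input with the first, from 0.24 down to -0.11.

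After a smooth trend on transcript length was removed from every input, an alternative chosen after seeing the data, 21 of 25 were apart and lower, 49 of the 73, and 745 of 12516 genes with a length, and the list's median was -0.87. Leaving out an input only loosens the rule, so the count cannot fall below 21, and it was 21 to 24 over the 5 omissions. With the trend removed Fos differed by -1.96, Egr2 by -2.18 and Npas4 by -1.76. Between dark and normal rearing the medians after the removal were 0.65 for ribosomal proteins, 0.37 for respiratory chain genes, 0.62 for microglia markers and -0.20 for sodium and calcium channels. Those of astrocyte markers and long noncoding RNAs moved little, at 0.46 and -1.59.

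The pulldown libraries give the same contrast in RNA bound to tagged ribosomes, which the input counts did not use, although the labels do not say whether inputs and pulldowns came from the same animals. There the mean of the 3 deprived groups (3 contralateral, 4 dark-reared and 3 dark-exposed libraries) was set against the mean of the 2 seeing groups (3 libraries each) in limma over 11562 genes. Only Fos and Dusp1 passed an adjusted p of 0.05, both lower (0.0173%), and 0 genes passed as higher. Fos fell by 1.79 ± 0.23 (SE) on the log2 scale with an adjusted p of 0.0153 in limma. Its pulldown levels were 6.83 ± 2.53, 7.63 ± 1.18 and 15.2 ± 6.44 FPKM in the contralateral, dark-reared and dark-exposed groups, against 22.6 ± 8.76 and 55.9 ± 24.0 FPKM in the ipsilateral and normally reared groups (SD, n = 3, 4, 3, 3 and 3). The dark-exposed libraries of Fos reached 22.3 FPKM and the ipsilateral ones came down to 13.2 FPKM, so these groups overlapped. Dusp1 fell by 1.15 ± 0.17 with an adjusted p of 0.0390 in limma. It had 9.37 ± 3.45, 10.6 ± 1.25 and 14.4 ± 2.15 FPKM in the 3 deprived groups, against 19.1 ± 1.46 and 36.5 ± 14.3 FPKM in the seeing groups. Dusp1 was the only gene with all 10 deprived pulldowns below all 6 seeing ones (0.00865%), with 16.8 FPKM as the highest deprived and 17.4 FPKM as the lowest seeing value.

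When hemispheres were blocked by their replicate number, 6 genes passed, 4 of them lower, Fos and Dusp1 included. The call of Fos was lost without dark-exposed replicate 3, ipsilateral replicate 2 or 3, or normally reared replicate 2 or 3, with adjusted p from 0.00697 to 0.0957 over all 16 single omissions. Dusp1 kept its call only when a contralateral replicate or normally reared replicate 1 was left out, with adjusted p from 0.0122 to 0.179.

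Of the immediate early factors 23 of 27 had pulldown values above the filter, and 22 of these had a negative difference, against 59.1% of all genes, with a median of -0.43. An unadjusted p under 0.05 was reached by 10 of them, all lower, against 0.744% of all genes in that direction. Npas4 differed by -1.21 ± 0.27 (SE), Arc by -1.14 ± 0.35, Egr2 by -1.03 ± 0.39 and Nptx2 by -1.02 ± 0.33, and none of these 4 passed. The negative pooled differences did not hold for each pair of groups. For 18 of the 23 factors the mean of the dark-exposed group lay above that of the ipsilateral group, as it did for 15 of 26 effectors and 11 of 19 feedback regulators. Arc averaged 59.9 ± 34.2 FPKM in dark-exposed and 40.2 ± 19.3 FPKM in ipsilateral pulldowns, and Egr2 4.63 ± 3.89 and 3.90 ± 3.12 FPKM (SD, n = 3 each), and the ages of these groups differ. At equal age the contralateral mean lay above the ipsilateral one for 0 of 23 factors and the dark-reared mean above the normally reared one for 1 of 23. How many of all pulldown genes follow each of these orders was not counted, so no share stands beside these counts. Gadd45b, with a difference of -1.42 in the inputs, differed by -0.11 ± 0.12 in the pulldowns, and Gadd45g, with -1.25 in the inputs, by -0.06 ± 0.12. Matn2 differed by 0.25 ± 0.22 and did not pass. Of the 475 genes lower in the inputs 380 were measured in the pulldowns and 309 (81.3%) had a negative difference, and of the 461 higher genes 406 were measured and 156 (38.4%) were negative. Beside these, 0 of 15 microglia markers were negative in the pulldowns and 10 were higher at an unadjusted p under 0.05, against 1.06% of all genes, with a median of 0.47. Whether the early genes in the pulldowns came from astrocytes or from other cells carried along was not tested.

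**Figure D5:**
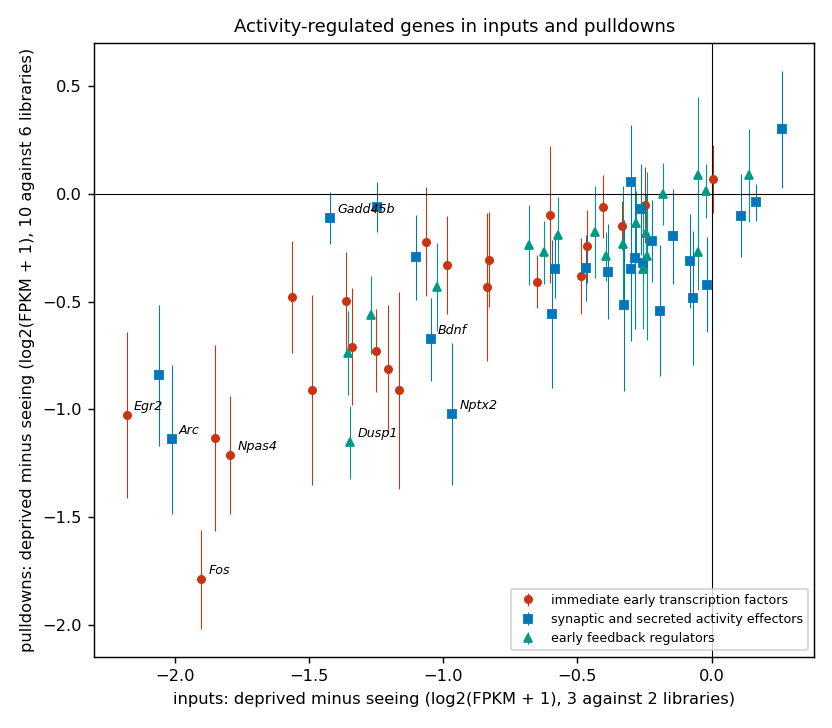
Deprived minus seeing difference in the inputs (x axis, 3 against 2 libraries) and in the pulldowns (y axis, 10 against 6 libraries), in log2(FPKM + 1), for the measured genes of the 3 activity lists, with SE of the pulldown difference as bars. Fos lies lowest at -1.79, Dusp1 at -1.15, and Gadd45b near 0 in the pulldowns.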

How the data were processed

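Poly(A) RNA of visual cortex was sequenced before (input) and after pulldown of tagged astrocyte ribosomes, following perfusion with fixative, per the labels' protocols. The deposited values are FPKM per gene and library made by the authors, for 24537 genes, rounded to 0.1 apart from Cyr61. The submitters' processing notes name, without order or role, STAR 2.5.1b, HOMER 4.10, CASAVA 1.8.2, DESeq2, FastQC 0.11.2 and R 3.4.3, and the build mm10. Of 22 samples 21 had a column, and dark-reared pulldown replicate 2 was not analysed here. The table also held 1 column of another sample, which was not used. A spreadsheet had turned 26 gene names into dates, and these were restored. Depth, absent from an FPKM table, was inferred for each library from the spacing of the values of genes under 130 bases (tolerance 0.15 of a read). It ran from 21.1 to 51.25 M reads, with no clear steps in contralateral pulldown replicate 2.

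Genes with a mean above 1 FPKM were fitted as log2(FPKM + 1) with limma 3.58.1 in R 4.3.3 (2-sided, empirical Bayes with an intensity trend and robust variances). P-values were adjusted by Benjamini-Hochberg over every gene tested in that comparison. A log2 difference on this scale understates the change of low genes. Same-numbered pulldown libraries of the hemispheres were taken as pairs in the replicate block only, and the main fit had no block. Their deviations from group means correlated at 0.790 to 0.903 over genes. Dark-reared and normally reared libraries of number 1, from differently reared mice, correlated at 0.429. Whether shared animals or shared preparation lie behind these correlations was not tested. Since the labels do not state that replicates were separate animals, p-values measure the spread between these libraries, which may be technical.

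Both models were tried by simulation with 200 changed genes. With the inputs (12563 genes), 13% of genes changed by 1 and 67% of genes changed by 2 on the log2 scale were recovered, with 1 false call among 81. With the pulldowns (11562 genes) these were 82% and 99%, with 7 false calls among 188. How the length trend of the inputs and the pairing of pulldown libraries by replicate number bear on these shares was not tested. The members and all 31 gene lists were chosen with earlier results of these data known. Named genes were the 10 widest gaps in each direction, up to 4 apart members of each list with the widest gap or else 2 with the largest difference, and a set of named activity, interneuron and astrocyte genes. Other list members are named to account for each list and were picked after their values were seen. A few members are not reported here by name. Pseudogenes, predicted genes and small RNA genes were kept out of the 10 widest gaps. Transcript lengths came from GENCODE vM21, matched for 12516 of 12563 genes. Promoters and microRNAs came from RefSeq tables on GRCm38.p6, and mm10 is the same assembly as GRCm38. Alternatives were other pseudocounts (0.1 and 5), filters, scalings, age as a block, the replicate block, single omissions and removal of the length trend by lowess with a span of 0.3. Python 3.11.15 with pandas 2.3.3 and matplotlib 3.10.9 made tables and figures.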

Additional observations from a re-analysis of the deposited data

Results flagged for a closer look

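Several gene lists moved in opposite directions in the matched-age pairs of inputs, and with 1 library a side the difference between the pairs was not tested. For the median difference of dark-reared minus normally reared and of contralateral minus ipsilateral, the values were 1.41 and -0.243 for cytosolic ribosomal proteins, 1.05 and -0.268 for respiratory chain genes, 1.04 and -0.0813 for microglia markers, and 0.482 and -0.0404 for astrocyte markers. Sodium and calcium channels had -0.733 and 0.102, and long noncoding RNAs -1.81 and 0.234. With the length trend removed the 6 lists had 0.65, 0.37, 0.62, 0.46, -0.20 and -1.59 between dark and normal rearing, in the same order.

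Sebox, apart and higher in the deprived inputs, had 1 of 4 dark-reared pulldown libraries above 0, so the gap of that library made up the whole range (ratio 1.0). That library had 0.2 FPKM, and with all others of the group at 0 any value above 0 gives this ratio.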

How the results depend on the processing

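In the inputs, 0 genes passed in limma (65 to 147 at an unadjusted p under 0.05) under other pseudocounts, scalings, a stricter filter, age as a block or removal of the length trend, and 69 passed with no filter, 58 of them lower. Leaving out 1 input gave 0 to 5 calls: 5 without the contralateral input (Egr2, Cyr61, Fos, Npas4 and Mir7025) and 1 without the dark-exposed input (Egr2). Apart genes, 475 lower and 461 higher, came to 745 and 694 with the length trend removed, and to 300 and 296 above a mean of 5 FPKM, where fewer genes were tested. With 1 input left out they came to 651 to 3246 lower and 827 to 4587 higher, since fewer libraries have to agree. Genes higher in both pairs, 1613, came to 2551 with the length trend removed, for which the cause was not tested, and to 1044 above 5 FPKM. The immediate early factors numbered 19 to 24 apart and lower under the filters, scalings, length removal and single omissions run for this count, 19 of 22 above 5 FPKM. Interferon genes, 6 apart and higher, came to 3 above 5 FPKM, where 6 were measured, and to 7 to 11 with 1 input left out, 11 without the dark-exposed one.

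In the pulldowns, 2 genes passed, and 12 without a filter, 2 of them lower, 1 with the groups of days 28 and 45 alone, 6 with the replicate block, and 0 to 2 with 1 library left out. The blocked calls were Fos, Dusp1, Kcng4, Gm11681, Igfbp2 and Sfrp1. The Fos difference ran from -1.96 to -1.64 and that of Dusp1 from -1.28 to -1.01 with 1 library left out. Dusp1 missed the threshold without a filter, at -1.15 (limma adjusted p = 0.0627), and with days 28 and 45 alone, at -1.32 (adjusted p = 0.0766). Sst, at -0.12, turned to 0.008 with age as a block and ran from -0.63 to 0.39 with 1 input left out, and Pvalb, at 0.36, ran from -0.11 to 0.82. Of 575 alternative values for 45 named genes, 4 changed direction.

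Each condition has 1 input, so age, paradigm and library cannot be told apart within a side. Rounding to 0.1 FPKM limits genes near 1 FPKM, and intervals for counts could not be given because reads were not among the values.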
